A study of Mus musculus with 24 samples.

Results

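The circular RNAs of 4 DNA repair genes, Rad52, Rnf169, Fancl and Usp3, were followed through 24 libraries of mouse cardiac fibroblasts. A circular RNA (circle) is counted by its back-splice junction, where a splice donor has been joined to an acceptor that lies before it in the gene. A circle belonged to a gene when both ends of its junction lay at exon edges of that gene on the same strand of the mouse build mm10. This rule found 6 of the 1717 circles in the authors' table: 1 of Rad52, 1 of Rnf169, 2 of Fancl and 2 of Usp3, which are 4 of 1187 host genes. The genes were chosen by measured values of these libraries: the abundance of the Rad52 and Rnf169 circles and the higher level of a Fancl and a Usp3 circle in TAC 4 weeks after surgery. Levels and 4-week differences are therefore given below as descriptions with no test.

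All mice were male C57BL/6J, 8 weeks old at surgery. Transverse aortic constriction (TAC) narrows the aortic arch with a suture and loads the heart with pressure; sham mice had the same operation without the ligature. Hearts were taken 1, 4 or 8 weeks later and the fibroblasts isolated on a Langendorff perfusion system; the sources used here mention no sort of the cells. The sham groups of weeks 1, 4 and 8 held 4, 5 and 4 libraries and the TAC groups 4, 4 and 3. Nothing in the labels ties libraries to separate mice, so p-values here describe the spread between libraries, which may be technical.

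Cells repair damaged DNA by several routes. At double-strand breaks a signalling step attaches ubiquitin to the histones around the break. Rnf169 is a relative of the ubiquitin ligase Rnf168 that binds ubiquitinated histone H2A at breaks and limits the recruitment of 53BP1, and Usp3 is a deubiquitinase that removes ubiquitin from histones H2A and H2B. Fancl is the ubiquitin ligase subunit of the Fanconi anaemia core complex, which monoubiquitinates FANCD2 and FANCI when DNA strands are crosslinked. Rad52 anneals complementary single strands during repair by homology, and its C-terminal part binds the single-strand binding protein RPA. A circle of such a gene reports back-splicing of its transcript and is not a measure of the protein.

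The junctions are shown because each is the read-out itself: only a read that crosses this order of sequence was counted. Each line gives the last 20 bases of the circle's last exon in lower case, followed by the first 20 bases of its first exon in capitals, 5′ to 3′ on the gene's strand, from the GENCODE vM21 transcripts of GRCm38 (mm10).
Rnf169 exons 2 to 4: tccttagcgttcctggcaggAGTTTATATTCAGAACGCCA
Rad52 exons 10 to 11: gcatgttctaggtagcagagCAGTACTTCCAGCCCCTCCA
Usp3 exons 2 to 8: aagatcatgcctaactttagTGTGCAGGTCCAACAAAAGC
Usp3 exons 2 to 3: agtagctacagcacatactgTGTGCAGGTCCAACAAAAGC
Fancl exons 2 to 7: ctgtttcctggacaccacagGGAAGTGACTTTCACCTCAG
Fancl exons 2 to 5: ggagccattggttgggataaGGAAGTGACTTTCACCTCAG
The capitals of the Usp3 pair are the same, and so are those of the Fancl pair, because the circles of each pair share the exon at which they begin and differ in the exon at which they end.

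The Rad52 circle joined the end of exon 11 to the start of exon 10 of a 12-exon transcript (ENSMUSG00000030166.14), at chr6:119920110-119921028 on the plus strand. Its exons are 81 and 222 bases long, 303 bases in all, and code for codons 300 to 401 of the 419 in the host protein, so the circle lies in the C-terminal region of the coding sequence. It was the only member that did not begin at exon 2. The Rnf169 circle joined exons 2 to 4 of a 6-exon transcript (ENSMUSG00000058761.5), at chr7:99935162-99955540 on the minus strand. Its exons of 74, 147 and 119 bases sum to 340 bases and cover codons 155 to 268 of 694.

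The Usp3 circles (ENSMUSG00000032376.12, minus strand) both began at exon 2 of 15. The longer, at chr9:66540062-66566903, ended with exon 8 and holds 670 bases of exon, and the shorter, at chr9:66562554-66566903, ended with exon 3 and holds 193. They cover codons 31 to 254 and 31 to 95 of 520. The Fancl circles (ENSMUSG00000004018.9, plus strand) both began at exon 2 of 14. The longer, at chr11:26397746-26434500, ended with exon 7 and holds 444 bases, and the shorter, at chr11:26397746-26407648, ended with exon 5 and holds 278. They cover codons 33 to 180 and 33 to 125 of 375.

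Junction reads fix the ends of a circle and not its interior, so the exons between the ends are those of the annotated transcript. With that limit, the exons of the most abundant pair of circles are shown in the order in which they follow each other, with the 20 bases at each end that meet at the junction in capitals.
Rad52 exon 10: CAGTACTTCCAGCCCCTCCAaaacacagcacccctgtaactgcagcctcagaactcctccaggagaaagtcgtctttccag
Rad52 exon 11: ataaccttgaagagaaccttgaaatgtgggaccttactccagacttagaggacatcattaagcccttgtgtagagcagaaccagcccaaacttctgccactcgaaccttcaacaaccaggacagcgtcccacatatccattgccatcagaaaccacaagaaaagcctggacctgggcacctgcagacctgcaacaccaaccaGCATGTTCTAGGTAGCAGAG
Rnf169 exon 2: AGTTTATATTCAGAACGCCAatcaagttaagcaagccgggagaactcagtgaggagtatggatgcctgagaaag
Rnf169 exon 3: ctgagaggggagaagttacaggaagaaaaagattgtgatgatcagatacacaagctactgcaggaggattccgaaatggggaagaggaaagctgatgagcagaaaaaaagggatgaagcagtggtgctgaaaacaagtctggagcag
Rnf169 exon 4: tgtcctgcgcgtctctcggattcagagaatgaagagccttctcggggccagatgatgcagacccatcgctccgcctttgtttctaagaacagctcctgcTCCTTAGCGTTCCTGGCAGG

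**Figure D1:**
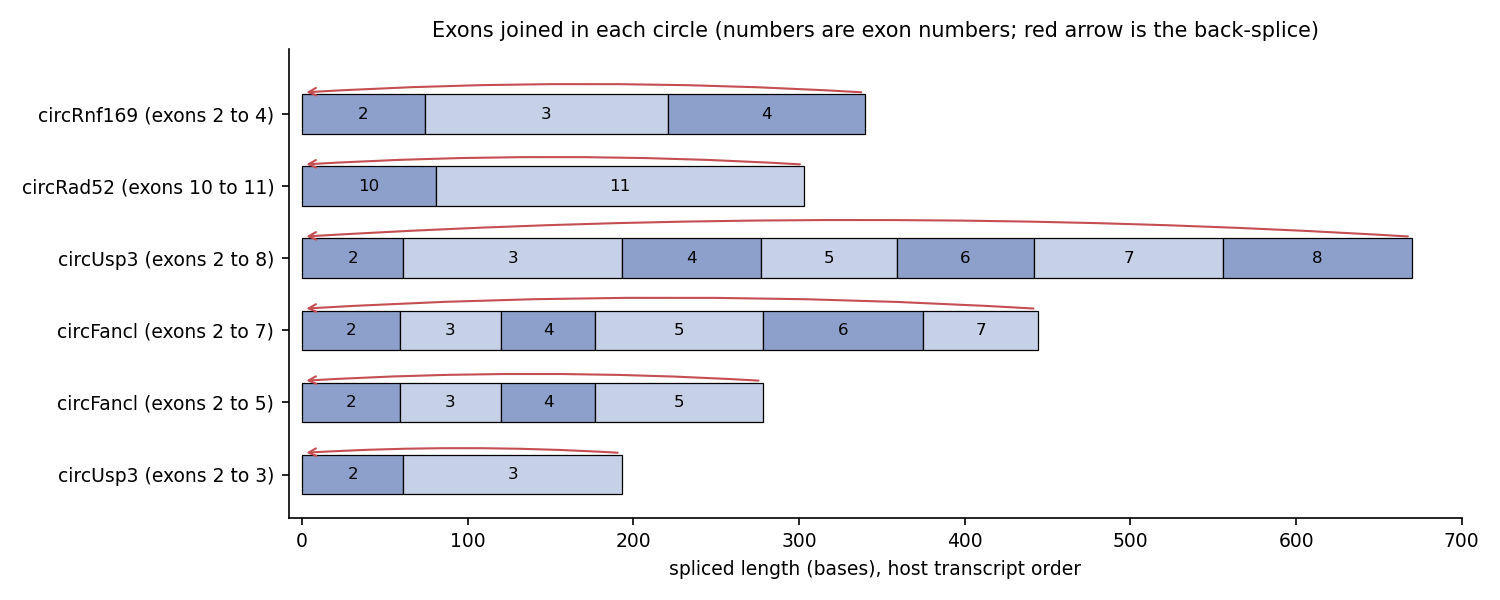
Exon make-up of the 6 circles. Each row is a circle, each box an annotated exon with its number, drawn to scale on a horizontal axis of spliced length in bases; the red arrow joins the last exon back to the first. The Usp3 circle of exons 2 to 8 is the longest at 670 bases and the Usp3 circle of exons 2 to 3 the shortest at 193 bases.

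All 6 circles were made of coding exons alone, as were 82.2% of the 1657 circles in the table whose ends both lay at exon edges of 1 transcript. Of the 6, 5 began at exon 2, against 36.7% of those 1657. The Usp3 pair share their start and so do the Fancl pair, so these 5 are not separate cases. The Rad52 circle (101 codons) and the longer Fancl circle (148 codons) had a length that is a multiple of 3, against 36.7% of the 1362 circles of coding exons alone. Followed in the host's reading frame around the circle for 3 rounds, these 2 sequences met no stop codon. The other 4 met one after 282 (Usp3 exons 2 to 3), 300 (Fancl exons 2 to 5), 387 (Rnf169) and 759 bases (Usp3 exons 2 to 8), which in each case is past the junction. These are properties of the sequence; no reading of them as protein was measured.

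Rad52 also differed from the other members in its surroundings. Its circle spanned 919 bases of genome, and the spans of the other 5 ran from 4350 bases (Usp3 exons 2 to 3) to 36755 (Fancl exons 2 to 7). The introns on its upstream and downstream sides were 1032 and 1446 bases long, shorter than all but 5.79% and 8.99% of the introns flanking circles in the table, whose medians were 10984.5 and 9861 bases. Rnf169 and Usp3 had upstream introns of 24431 and 25880 bases, and Fancl one of 10435 bases. The G and C content was lowest in the Fancl circles, at 40.6% for exons 2 to 5 and 42.8% for exons 2 to 7, where the median over circles was 49.3%.

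The libraries held 3595 to 9146 junction reads, and 1 read was worth 0.642 to 1.57 normalized reads. Back-splice junctions of listed fibroblast markers were scarce (2 circles, of Dcn and Sparc, from 18 genes, summing to at most 11.3 normalized reads in a library), and the other listed markers, Pdgfra and Col1a1 among them, had none among the circles analysed here, so the fibroblast label could not be checked with circles. Circles of macrophage and other leukocyte markers (24 circles of 7 hosts) summed to 74.8 to 187 normalized reads and circles of cardiomyocyte markers (13 of 8 hosts) to 17.4 to 144. In such bulk libraries fewer cells of a type and less RNA per cell cannot be told apart. The first sham library at 1 week stood apart. Its leukocyte sum of 187 compared with 87.2 to 109 in the other 3 sham libraries of that week. It held the lowest values of its group for Rad52 and Usp3 exons 2 to 8 and no read of either Fancl circle. Results at 1 week are therefore given with and without it. Since values of the members entered this choice, the shifts without it show dependence on 1 library and no more. The third sham library of week 1, with 3752 junction reads, had a cardiomyocyte sum of 144, against 40.3 to 77.3 in the others of its group.

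The Rnf169 and Rad52 circles were among the most abundant in the table. Each circle has 1 junction, so junction reads were compared between circles without a correction for length. That circles of different size and sequence are detected alike was assumed and not tested. The Rnf169 circle averaged 36.3 ± 8.12 normalized reads (SD, n = 24 libraries), 0.635% of all junction reads and the fourth highest level of the 1717, and the Rad52 circle 29.8 ± 6.95, 0.520% of reads and rank 9. The Usp3 circle of exons 2 to 8 averaged 12.2 ± 6.36 (rank 59). These 3 circles were read in all 24 libraries, on 886, 723 and 304 reads. The other 3 were scarce: 3.88 ± 3.23 for Fancl exons 2 to 7 (94 reads in 20 libraries), 2.05 ± 1.89 for Fancl exons 2 to 5 (52 reads in 16 libraries) and 1.68 ± 1.36 for Usp3 exons 2 to 3 (40 reads in 19 libraries).

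The order of the 3 abundant circles was seen within most libraries. Rnf169 was above Rad52 in 18 of 24 libraries with 1 tie, Rad52 was above Usp3 exons 2 to 8 in 24 of 24, and Usp3 exons 2 to 8 was above Fancl exons 2 to 7 in 23 of 24 with 1 tie. Further down, Fancl exons 2 to 7 was above Fancl exons 2 to 5 in 14 libraries with 6 ties, and Fancl exons 2 to 5 above Usp3 exons 2 to 3 in 12 with 5 ties. Neighbouring means among the last 3 circles, and those of Rnf169 and Rad52, differed by less than the SDs of both circles.

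One further Rnf169 junction, at chr7:99924296-99955540, began at the same exon 2, but its other end lay at no annotated exon edge. It was therefore not counted as a member. It held 28 reads in 18 libraries, a mean of 1.13 ± 0.963 normalized reads, against 886 for the circle of exons 2 to 4.

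**Figure D2:**
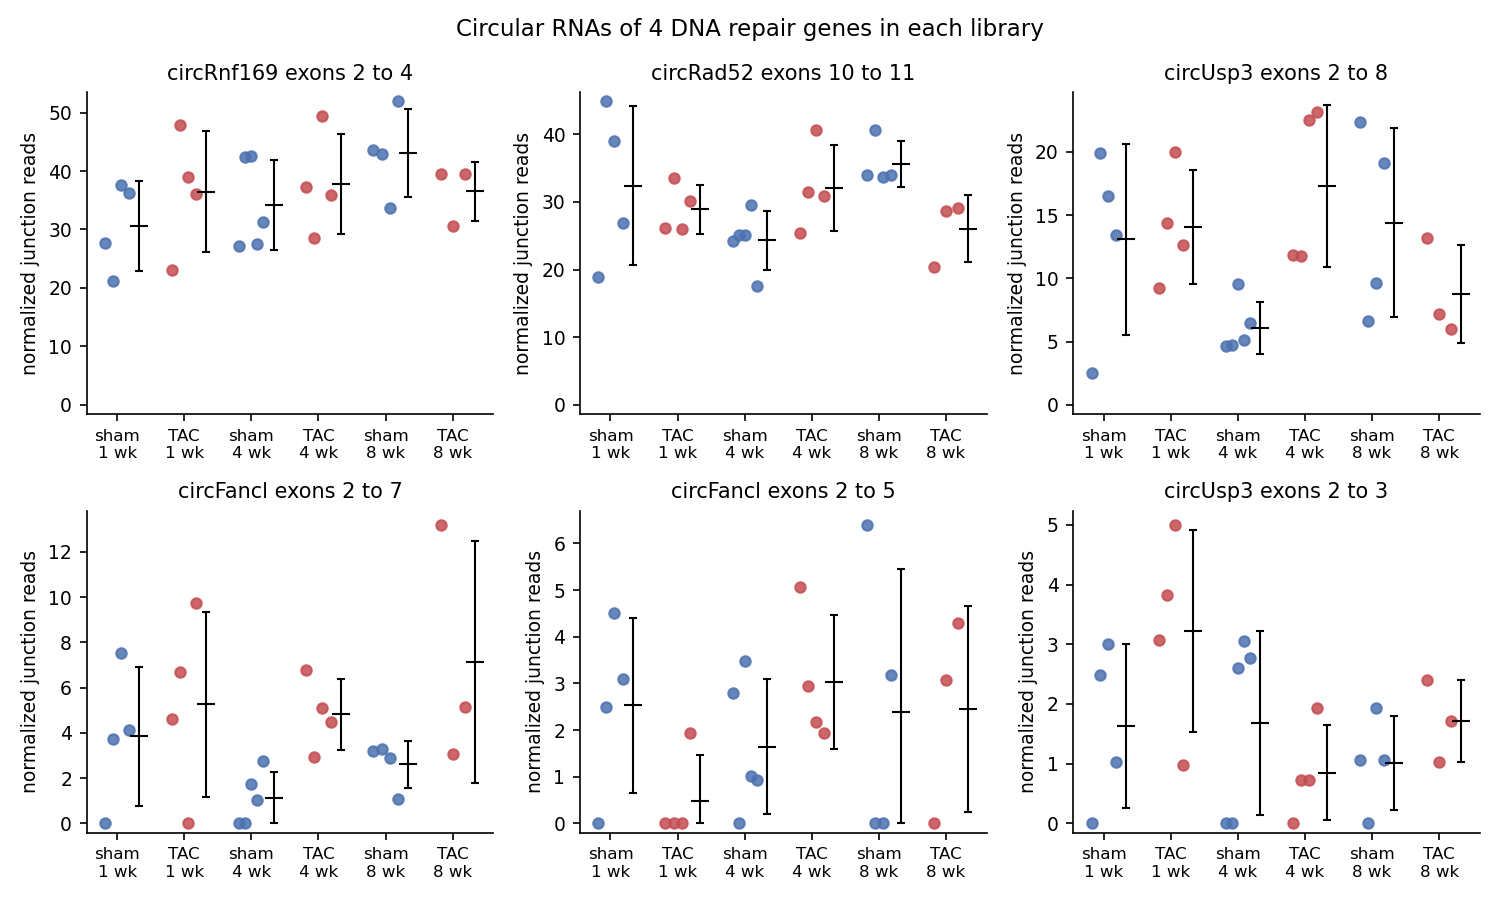
Normalized junction reads of the 6 circles. Each panel is a circle, with groups along the horizontal axis and normalized junction reads on the vertical axis; each point is a library (blue sham, red TAC) and the bar beside the points is the mean with its SD, drawn no lower than 0. Rnf169 and Rad52 stay between 17.5 and 52.0 in every library, while each Fancl circle and the short Usp3 circle reach 0 in at least 1 library.

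Rad52 had the steadiest counts of any circle of its level. Its SD between libraries of a group, pooled over the 6 groups, was 0.31 on the log2(normalized reads + 0.5) scale, below each of the 21 other circles whose mean reads were within 1.5-fold of its own (median 0.52). Rnf169, at 0.33, was near it, with 18.2% of 11 like-abundant circles below. The Usp3 circle of exons 2 to 8 had a larger SD, at 0.72 against a median of 0.60 in 93 circles of like level (74.2% below it). This SD includes the first sham library of week 1, at 2.51 where the others of its group held 13.4 to 19.95. That library also held no read of either Fancl circle, and the SDs were not recomputed without it. The Fancl circles were among the most variable of their level, with SDs of 1.31 (94.6% of 367 below) for exons 2 to 7 and 1.39 (96.2% of 706 below) for exons 2 to 5. Usp3 exons 2 to 3, at 1.10, lay in the middle of 910 circles (46.5% below). These are descriptions of 24 libraries with no test.

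**Figure D3:**
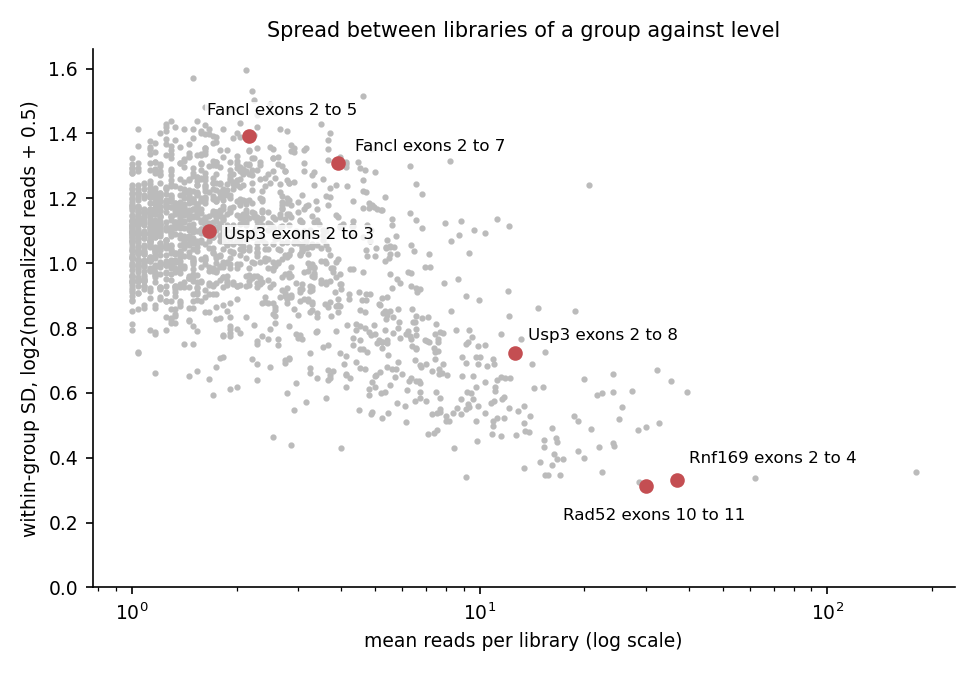
Spread between libraries against abundance. The horizontal axis is the mean number of reads per library on a log scale, the vertical axis the within-group SD of log2(normalized reads + 0.5); grey points are the other circles of the table and red points the 6 circles named. Rad52 (0.31) and Rnf169 (0.33) lie at the lower edge of the cloud and the Fancl circles (1.31 and 1.39) near its upper edge.

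One week after surgery, no circle of the 4 genes passed the test of TAC against sham. Limma called 0 of the 6 at an adjusted p of 0.05, where 1.46% of all 1717 circles were called and 201 had an unadjusted p under 0.05. The 6 log2 fold changes had a median of 0.28 (4 above 0, 2 below), beside 0.04 over all circles, and the adjusted p-values ran from 0.403 to 0.9502.

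Rad52 stood at 18.8, 44.9, 39.1 and 26.9 normalized reads in the sham libraries of week 1 and at 26.1, 33.5, 26.0 and 30.2 in the TAC libraries. The TAC values lay inside the range of the sham values, and the log2 fold change was -0.09 ± 0.31 (SE; 95% interval -0.70 to 0.52, adjusted p = 0.9502). Rnf169 stood at 27.6, 21.2, 37.6 and 36.2 in sham and at 23.1, 47.9, 38.9 and 36.0 in TAC. These groups overlapped too, with a log2 fold change of 0.24 ± 0.29 (-0.33 to 0.80, adjusted p = 0.811). Without the first sham library the log2 fold changes were -0.32 for Rad52 and 0.20 for Rnf169. With all libraries, both intervals leave out a change of 2-fold at 1 week in either direction.

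The longer Usp3 circle was at 2.51, 19.95, 16.5 and 13.4 in sham and at 9.23, 14.4, 19.97 and 12.6 in TAC. Only the first sham library was low, and the log2 fold change of 0.35 ± 0.46 (adjusted p = 0.828) became -0.27 without it. The longer Fancl circle was at 0, 3.74, 7.51 and 4.14 in sham and at 4.61, 6.71, 0 and 9.73 in TAC. Each group held 1 library at 0, and its log2 fold change of 0.31 ± 0.70 (adjusted p = 0.916) became -0.54 without that sham library. The shorter Usp3 circle averaged 1.63 ± 1.37 in sham and 3.22 ± 1.69 in TAC, with a log2 fold change of 0.99 ± 0.80 (adjusted p = 0.662) that was 0.41 without the library. The cardiomyocyte marker circles summed to 24.9 to 32.3 in the TAC and to 40.3 to 144 in the sham libraries of week 1, without overlap, and their part in the values of the members was not tested.

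The largest difference of the 6 at 1 week was in the shorter Fancl circle. It was at 0, 2.49, 4.51 and 3.10 in sham and at 0, 0, 0 and 1.95 in TAC, which is 8 reads against 2. Most of the TAC libraries held no read, but so did 1 sham library. The log2 fold change was -1.62 ± 0.80 (-3.19 to -0.04), with an unadjusted p of 0.0444 and an adjusted p of 0.403, so it did not pass the test. The ratio of reads per depth was 0.217 with an exact interval of 0.0224 to 1.09, which covers counting error only. Without the first sham library, which held no read of this circle, the log2 fold change was -2.35 (adjusted p = 0.165). Leaving that library out could only widen the difference.

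At 8 weeks limma called 0 of the 6 circles, and 0% of the 1717 were called, although 104 had an unadjusted p under 0.05. The 6 log2 fold changes had a median of 0.07, 3 above 0 and 3 below, and adjusted p-values from 0.861 to 0.966.

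Rad52 was the only member whose groups did not overlap at 8 weeks. It was at 34.0, 40.7, 33.7 and 33.9 in sham and at 20.3, 28.6 and 29.1 in TAC. All 3 TAC libraries were below all 4 sham libraries, with means of 26.0 ± 4.93 and 35.6 ± 3.41. The log2 fold change was -0.46 ± 0.34 (-1.12 to 0.20, adjusted p = 0.885), and a two-sided exact permutation test of the means gave p = 0.0571, the smallest that 3 against 4 libraries allow. All TAC libraries were below all sham libraries in 3.03% of the 1717 circles and in 2.21% of the 272 with a mean of at least 5 reads. The cardiomyocyte marker circles summed to 42.0 to 54.1 in the TAC and to 62.6 to 130 in the sham libraries of that week, likewise without overlap, and their part in the Rad52 values was not tested.

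Rnf169 at 8 weeks was at 43.6, 42.9, 33.7 and 52.0 in sham and at 39.5, 30.6 and 39.4 in TAC (log2 fold change -0.23 ± 0.31, adjusted p = 0.942). Usp3 exons 2 to 8 was at 22.3, 6.60, 9.62 and 19.1 in sham and at 13.2, 7.15 and 6.00 in TAC (-0.61 ± 0.50, adjusted p = 0.901). In both, every TAC library was below the sham mean, and the groups overlapped. The longer Fancl circle had the opposite sign, at 3.19, 3.30, 2.89 and 1.06 in sham and 13.2, 3.06 and 5.14 in TAC. Its log2 fold change was 1.15 ± 0.76 (-0.34 to 2.63, adjusted p = 0.861), and the highest value, in the first TAC library, was the highest of this circle in the study. It was 0.61 without that library, the lowest of the values with 1 library left out, which reached 1.58. With 1 library left out, Rad52 was at -0.55 to -0.29, Rnf169 at -0.34 to -0.11 and the longer Usp3 circle at -0.93 to -0.35. Fancl exons 2 to 5 (0.36 ± 0.87) and Usp3 exons 2 to 3 (0.70 ± 0.86) did not pass either.

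Between 1 and 8 weeks the circles were also compared within sham and within TAC. In sham, limma called 0 of the 6 against 0.116% of all circles. Rnf169 came nearest, at 43.0 ± 7.48 after 8 weeks and 30.6 ± 7.68 after 1 week (n = 4 each), a log2 fold change of 0.50 ± 0.29 (-0.06 to 1.07, unadjusted p = 0.0822, adjusted p = 0.712). All 4 sham libraries of week 8 were above the mean of week 1, and the log2 fold change was 0.47 without the first library of week 1. In TAC, 0 of the 6 were called, 0% of all circles, and 129 of the 1717 had an unadjusted p under 0.05. The shorter Fancl circle, with 8 reads in 3 libraries at 8 weeks and 2 in 4 libraries at 1 week, had the largest difference, 1.46 ± 0.87 (adjusted p = 0.680). Usp3 exons 2 to 8 averaged 14.1 ± 4.48 after 1 week and 8.77 ± 3.85 after 8 (-0.68 ± 0.50, adjusted p = 0.768), and Rad52 averaged 29.0 ± 3.63 and 26.0 ± 4.93 (-0.16 ± 0.34, adjusted p = 0.942).

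The change of the TAC effect from 1 to 8 weeks, tested as an interaction, was called for 0 of the 6, with 0% of all circles called and 148 at an unadjusted p under 0.05. The largest was 1.98 ± 1.18 for Fancl exons 2 to 5 (adjusted p = 0.641), followed by -0.96 ± 0.68 for Usp3 exons 2 to 8 (adjusted p = 0.722). For Rad52 it was -0.36 ± 0.46 (adjusted p = 0.864) and for Rnf169 -0.46 ± 0.43 (adjusted p = 0.786). Without the first sham library of week 1 the difference was 2.71 for Fancl exons 2 to 5, 1.69 for Fancl exons 2 to 7 (0.83 with it), -0.34 for Usp3 exons 2 to 8, -0.13 for Rad52 and -0.43 for Rnf169. Its size in the longer Usp3 circle and in Rad52 thus rested in good part on that library. The TAC effects at different weeks use separate sham libraries.

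At 4 weeks the Usp3 and Fancl circles had the values for which these genes were picked. The longer Usp3 circle was at 4.67, 4.71, 9.55, 5.09 and 6.45 in sham and at 11.8, 11.7, 22.5 and 23.1 in TAC. Every TAC library was above every sham library, with means of 17.3 ± 6.38 and 6.09 ± 2.06 and a log2 difference of 1.41. The longer Fancl circle was at 0, 0, 1.74, 1.02 and 2.76 in sham and at 6.76, 2.93, 5.08 and 4.496 in TAC. Here too the groups did not overlap, with a log2 difference of 2.07, although the lowest TAC value (2.93, on 4 reads) and the highest sham value (2.76, on 3 reads) were close. All TAC libraries were above all sham libraries in 2.33% of the 1717 circles at 4 weeks, and limma called 0.116% of them; nothing is read from these shares, since the contrast chose the members.

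The remaining circles did not share that separation at 4 weeks. Rad52 was at 24.3, 25.1, 25.2, 29.5 and 17.5 in sham and at 25.4, 31.5, 40.7 and 30.8 in TAC, with means of 24.3 ± 4.33 and 32.1 ± 6.34 and a log2 difference of 0.39. The groups overlapped in 1 TAC library. Rnf169 was at 27.1, 42.4, 42.5, 27.5 and 31.3 in sham and at 37.2, 28.6, 49.4 and 36.0 in TAC, a log2 difference of 0.14. The shorter Fancl circle averaged 1.64 ± 1.44 in sham and 3.03 ± 1.43 in TAC (log2 difference 0.98), and Usp3 exons 2 to 3 averaged 1.68 ± 1.55 and 0.847 ± 0.798 (-0.41). For this last circle the log2 difference was between -0.82 and -0.0086 when 1 library was left out, nearest to 0 without the first TAC library of week 4.

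Several library measures moved with the 4-week groups. The TAC libraries of week 4 were the deepest of the study, at 7980 ± 940 junction reads (n = 4) against 5666 ± 1188 in sham (n = 5). The leukocyte circles summed to 74.8 to 140 in these TAC libraries and 98.9 to 181 in sham, and the cardiomyocyte circles to 17.4 to 42.4 and 41.5 to 133. Their part in the values of Usp3 and Fancl was not tested. The first and second sham libraries of week 4 carried column names of another form than the rest of their group. They held no read of Fancl exons 2 to 7 and the lowest values of Usp3 exons 2 to 8 in their group (4.67 and 4.71). The labels do not say what the names mark, and its part was not tested.

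**Figure D4:**
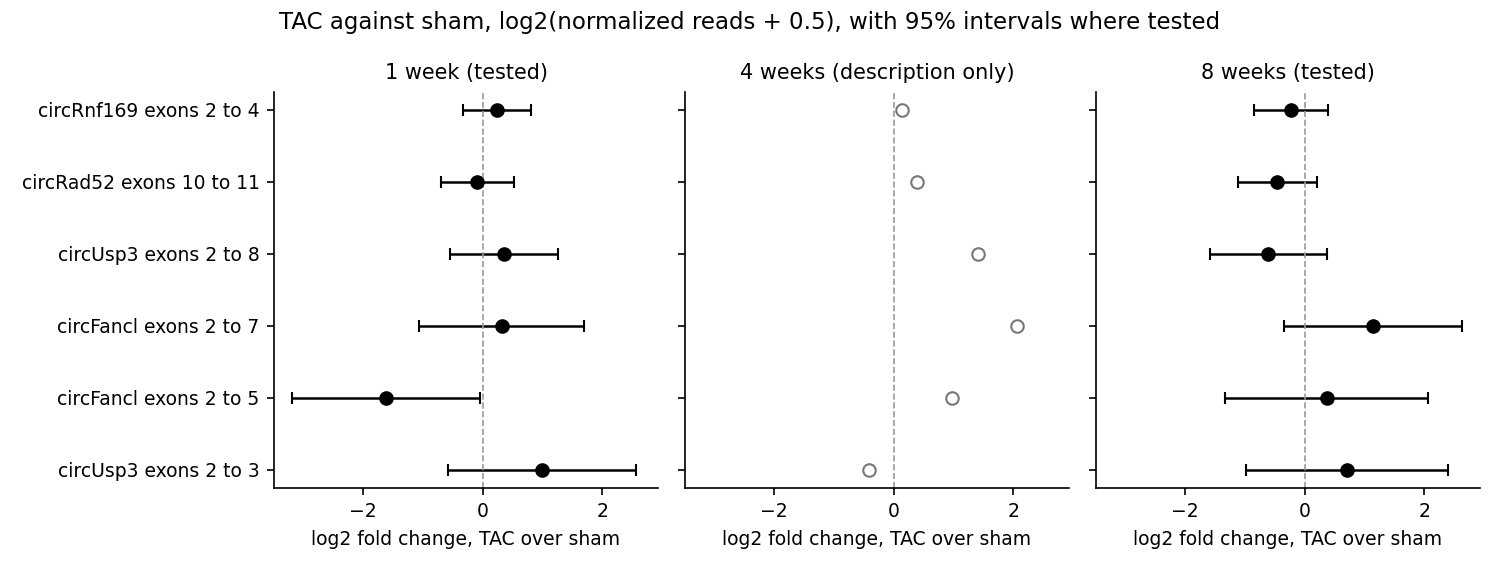
TAC against sham at each week. Each row is a circle and the horizontal axis the log2 fold change of log2(normalized reads + 0.5), TAC over sham; filled points are the tested contrasts with 95% intervals and open points the 4-week differences, drawn with no interval because they chose the members. At 8 weeks all 6 intervals cross 0, and at 1 week the interval of Fancl exons 2 to 5 (-3.19 to -0.04) alone does not.

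The choice between the long and the short circle of a host was read from the pooled reads of both. Fancl exons 2 to 7 took 94 of 146 reads, 64.4% (Wilson 95% interval 56.3 to 71.7, for counting error only), and Usp3 exons 2 to 8 took 304 of 344, 88.4% (84.6 to 91.3). The share of the longer Fancl circle was 60.0% in sham and 90.9% in TAC 1 week after surgery. After 4 weeks it was 40.0% in sham and 61.9% in TAC, and after 8 weeks 52.6% in sham and 71.4% in TAC. The 4-week values chose the longer circle, some groups had as few as 15 reads, and no test over libraries was made. For Usp3 the longer circle took 89.4% in sham and 81.8% in TAC after 1 week, 77.5% and 95.1% after 4, and 93.2% and 83.3% after 8; the 4-week values chose this circle too.

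Across the 24 libraries the correlations between members were low to moderate. Pearson correlations of log2(normalized reads + 0.5) between pairs of members ran from -0.0773 (Fancl exons 2 to 5 with Usp3 exons 2 to 3) to 0.542 (Rad52 with Usp3 exons 2 to 8), and the last was 0.438 without the first sham library of week 1. Rnf169 and Rad52, the most abundant pair, had r = 0.183, or 0.107 without that library, and the lowest r became -0.192, in the same pair. The points share their libraries and scaling factors, so these are descriptions. Counting error lowers r, most in circles with few reads, and its part was not measured. A low r therefore does not show that members varied independently.

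The circles of other hosts most like the members were sought among the 271 or 272 whose mean was 5 reads or more. Usp3 exons 2 to 8 was most like Rabep1 exons 2 to 3 (r = 0.753, 0.661 without the first sham library of week 1), Esco1 exons 5 to 7 (r = 0.673) and Mettl9 exons 2 to 4 (r = 0.661). Rad52 was most like the same Rabep1 circle (r = 0.610), Esco1 (r = 0.595) and Dennd1b exons 6 to 9 (r = 0.586). Rnf169 was most like Lrch3 exons 2 to 6 (r = 0.698), Crebrf exons 3 to 4 (r = 0.682) and again Esco1 (r = 0.614). Fancl exons 2 to 7 was most like Efnb2 exon 2 (r = 0.593), Cnot6l exons 2 to 4 (r = 0.592) and Tcf25 exons 3 to 4 (r = 0.550). The Esco1 circle was thus among the nearest 3 of 3 members. Without the first sham library of week 1 its r was 0.609 with Usp3 exons 2 to 8, 0.528 with Rad52 and 0.586 with Rnf169. The median r over all circles compared was between -0.0389 and 0.0357 for each member. The nearest circles were picked as the highest of 271 or 272, so their r is high by selection and was not tested.

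Other DNA repair genes, as listed for this report, were hosts of 16 circles. They came from 12 of the 193 listed genes outside the 4 hosts and had means of at most 7.58 reads a library. Their median, 1.65 reads, was near that of all 1717 circles, 1.83. Circles of hosts not on the list, Spidr, Ascc2, Ascc3 and Slf2 among them, were not counted, so 16 is not a total for the table. Break signalling genes gave 8 of the 16, from 5 hosts, Uimc1, Herc2, Rnf4 and Trip12 among them. Nucleotide excision repair (Rad23b and Cul4a) and translesion synthesis (both from Rev1) gave 2 each. Fan1, Pms1, Xrcc4 and Smc6 gave 1 each, from the Fanconi anaemia, mismatch repair, end joining and SMC5/6 lists. The lists of 43 homologous recombination and 24 base excision repair genes gave 0 among the circles analysed here.

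Limma called 0 of these 16 circles in each comparison, and at an unadjusted p under 0.05 there were 2 at 1 week, 0 at 4 weeks and 0 at 8 weeks, where 201, 137 and 104 of all 1717 were. Between 8 weeks and 1 week there were 1 in sham and 2 in TAC (129 of all circles in each), and 1 in the interaction (148 of all). At 1 week 9 had a positive and 7 a negative log2 fold change, with a median of 0.29 beside 0.04 for all circles, and at 8 weeks 6 and 10, with a median of -0.34 beside 0.03. At 4 weeks the counts were 10 and 6, with a median of 0.18 beside 0.12. The most read was Rev1 exons 2 to 3, from the gene of a translesion DNA polymerase, at 11.9 ± 6.58 in sham and 5.07 ± 2.86 in TAC at 1 week (-1.26 ± 0.53, adjusted p = 0.262) and with a log2 fold change of 0.26 ± 0.57 at 8 weeks (adjusted p = 0.964). Uimc1 exons 7 to 9, from the gene of the ubiquitin-binding BRCA1-A subunit RAP80, had -1.11 ± 0.66 at 1 week (adjusted p = 0.504) and -0.58 ± 0.71 at 8 weeks (adjusted p = 0.942). Pms1 exons 2 to 5, from a mismatch repair gene, had 0.17 ± 0.72 (adjusted p = 0.963) and -1.10 ± 0.78 (adjusted p = 0.885). The smallest adjusted p of the list in a TAC against sham comparison was 0.105, for Fan1 exons 3 to 8 at 1 week, a nuclease of crosslink repair named here after its values were seen: 5.05 ± 3.77 in sham and 0.2496 ± 0.499 in TAC, a log2 fold change of -2.47 ± 0.82.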

How the data were processed

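Back-splice junction reads were measured in 24 stranded, ribosome-depleted total RNA libraries. Per the submitters' processing notes, FastQC, Trimmomatic and STAR were used with the build mm10; versions, the circle caller's settings and filters and the scaling method were not given in the sources used here. In the 1 table of normalized signal the authors deposited, subtracting 0.01 left whole multiples of 1 read's worth per library (100% of values within 0.001 of a read); values are given here with that offset removed, as normalized reads. Low circles rest on few reads, which limits their precision.

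Columns were matched to samples by the labels. Hosts, exons and sequences came from GENCODE vM21 (GRCm38). All 24 libraries and 6 groups entered 1 limma 3.58.1 fit (R 4.3.3, empirical Bayes with trend) on log2(normalized reads + 0.5), with no filter, with Benjamini-Hochberg adjustment over 1717 circles per contrast; the fit was tested on simulated data. A count test had been planned; the deposited values are a normalized signal, so limma was the main test and limma-voom on the recovered reads an alternative. Errors of log2 fold changes are SE, other errors SD. Of 37 library pairs within groups, 0 held identical values and each differed beyond counting noise (chi-square p at most 0.0109).

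The members, gene lists and tests were chosen with earlier results of these data known. Every circle of the 4 hosts is named; of the repair list, any called circle, otherwise the 3 with the most reads and the 3 with the largest change at 5 reads or more on average; and the 3 most alike circles by Pearson r for the main circle of each host. Sham and TAC libraries with the same number in their titles deviated together at 1 week (r 0.155 to 0.257 over 272 circles, a pairing seen in the data, not in the labels). Every pair was required to exceed 0.1, which was not met at 4 weeks (-0.19 to 0.135) or at 8 weeks, where 2 of 3 pairs did (-0.0175 to 0.206). The columns carry other numbers at these weeks, by which r was -0.148 to 0.0389 and -0.158 to 0.0516. Alternatives were other pseudocounts, scalings and filters, limma-voom, the compared groups alone, a replicate block and each library left out.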

Additional observations from a re-analysis of the deposited data

Results flagged for a closer look

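Among 30 groups of 4 or 5 libraries checked, 2 held a library far from the others. Chance gives about 1 in 20, a rate that does not hold for counts near 0. The second sham library at 8 weeks had 40.7 normalized reads of the Rad52 circle where the other 3 had 33.7 to 34.0. The fourth TAC library at 1 week had 1.95 normalized reads (2 reads) of Fancl exons 2 to 5 where the others had 0. With the others at 0, any read would have been flagged.

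For 3 circles every TAC library lay on 1 side of the sham mean at 1 time and on the other side at another time. The difference was not tested for any of them, since the 4-week values chose the members. The share of the 1717 circles with such a pattern was not counted, so nothing is read from the 3. The log2 TAC effect on Rad52 at 8 weeks minus that at 4 weeks was -0.85, and for Usp3 exons 2 to 8 it was -2.02. For Fancl exons 2 to 5 the effect at 4 weeks minus that at 1 week was 2.59.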

How the results depend on the processing

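No member was called under any setting run, in any tested contrast (smallest adjusted p 0.165). Of 537 recomputed log2 fold changes of members, 506 kept their sign. The exceptions without a library left out were, for Fancl exons 2 to 7 in sham at 8 against 1 week, 0.41 with a pseudocount of 0.1 and 0.0716 with TMM scaling (-0.02 as reported), and for Rnf169 in TAC at 8 against 1 week, -0.0465 with median-of-ratios scaling and -0.0165 with limma-voom (0.04 as reported).

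Leaving out 1 library at a time gave these ranges where a sign changed. TAC against sham at 1 week: Fancl exons 2 to 7 -0.54 to 1.28, Rad52 -0.32 to 0.0872, Usp3 exons 2 to 8 -0.27 to 0.65. At 8 weeks: Fancl exons 2 to 5 -0.25 to 1.38. Sham at 8 against 1 week: Fancl exons 2 to 5 -1.25 to 0.0325, Fancl exons 2 to 7 -0.88 to 0.45, Rad52 -0.0262 to 0.38, Usp3 exons 2 to 8 -0.34 to 0.59, Usp3 exons 2 to 3 -0.94 to 0.10. TAC at 8 against 1 week: Fancl exons 2 to 7 -0.15 to 1.30, Rad52 -0.25 to 0.0043, Rnf169 -0.16 to 0.18. Effect at 8 minus 1 week: Fancl exons 2 to 7 -0.13 to 1.69, Usp3 exons 2 to 3 -0.75 to 0.30.

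The count of all circles called at 1 week (25) was 25 with the replicate block, 8 with the block on 1-week libraries alone (chosen after seeing the data), 11 with limma-voom, 4 with the compared groups alone and 6 to 32 with a library left out; the block called 0 members. A block by the columns' numbers, added after seeing the data, called 0 circles at 4 and at 8 weeks. In sham over time it was 2 (0 to 4), for the interaction 0 (2 with a pseudocount of 1, up to 8 with a library left out). At 4 weeks it was 2 (0 to 14 over settings added after seeing the data), and the log2 difference of Fancl exons 2 to 7 was 3.06 with a pseudocount of 0.1. The filter at a mean of 5 reads kept Rad52, Rnf169 and Usp3 exons 2 to 8. The planned edgeR and DESeq2 tests were not run. With 40 to 94 reads in all, the 3 scarcest circles give intervals spanning several-fold changes in each contrast.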
